A study of Mus musculus with 20 samples.

Results

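The genes described here are 8 members of the RGS family (Rgs1, Rgs2, Rgs3, Rgs10, Rgs14, Rgs16, Rgs18 and Rgs19), taken by symbol as regulators of signalling from chemokine receptors. They were chosen with earlier results of these data known. They are 8 of 30199 genes named on the array, and 14 probes bear the symbols of these 8. The array also carries 15 other genes whose symbols start with Rgs, Rgs7bp and Rgs9bp among them. RNA of sorted mouse CD4 T cells was hybridised on 20 single-colour arrays that cover 12 groups. All mice were B6.Cg-Foxp3<tm1Mal>, a strain in which GFP reports Foxp3, the transcription factor that defines regulatory T cells. Each array holds cells pooled from 8 to 15 mice of both sexes, aged 8 to 14 weeks. Cells of peripheral lymph nodes (pLN) came from mice given the protein KLH in alum under the skin, on day 12 (d12, 2 arrays per group) or day 25 (d25, 1 array per group) after immunisation. Their 4 groups were naive T cells (GFP- PD1- GL7-), Treg cells (GFP+ PD1- GL7-), T follicular helper cells (TFH, GFP- PD1hi GL7+) and T follicular regulatory cells (TFR, GFP+ PD1hi irrespective of GL7). From Peyer's patches (PP), the lymphoid follicles of the gut wall, Treg cells, TFR cells and TFH cells with and without the carbohydrate epitope GL7 were sorted, with 2 arrays per group and no naive T cells.

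Chemokine receptors act through heterotrimeric G proteins, mostly of the Gi class. RGS proteins speed up the hydrolysis of GTP by the alpha subunit, so the signal ends sooner and the cell turns less strongly towards the chemokine. Lymphocytes that enter B cell follicles change their receptors, among them Cxcr5 and Ccr7, and the amount of an RGS protein sets how strongly those receptors are heard. Rgs1 and Rgs16 act mainly on Gi and Gq subunits, and Rgs2 prefers Gq. Gi class subunits are among the targets of Rgs10, Rgs18 and Rgs19. Rgs14 combines an RGS domain with a motif that binds Gi in its GDP form.

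Intensities are given below on the linear scale after normalisation to a 75th percentile of 1500, with replicate 1 before replicate 2. Each probe was printed as 4 features, and it was above background where 3 or more of them were marked so. Of the 14 member probes, 12 passed the filter for testing (above background in 1 group or more on both of its arrays), and they stand for 7 of the 8 genes. The exception was Rgs18. Levels under 144 could not be resolved on every array, since the lowest intensity of a probe above background ranged from 20 to 144 between arrays. In RNA of a sorted population, fewer cells that express a gene and less RNA per cell cannot be told apart. Each array is 1 sort, and p-values measure the spread between the arrays of a group. Replicates 1 and 2 of a group lie on different slides and received different amounts of RNA. The main model has no slide term, so that spread also holds these differences.

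The arrays lay on 5 slides of 4 arrays. Slides 1 and 2 held replicates 1 and 2 of pLN d12, slide 3 held pLN d25, and slides 4 and 5 held replicates 1 and 2 of PP, so tissue and day cannot be told apart from slide, whereas the cell types of 1 tissue can be compared within each slide. All 6 T cell markers found on the array were above background on every array, and Foxp3 read 13409 to 35129 in Treg and TFR cells against 27.0 to 192 in naive T and TFH cells. Slide 4 stood apart. The summed level of 13 B cell markers was 24183 to 169744 on its 4 arrays, 6624 to 15305 on slide 5 and 4685 to 21795 in pLN, and PP TFR replicate 1 was the highest, with PP Treg replicate 1 at 111901. All 13 B cell markers were above background on slide 4, 11 to 13 on slide 5 and 4 to 13 in pLN. The summed level of 7 epithelial markers was 3525 to 8234 on slide 4 against 743 to 2264 on slide 5 and 253 to 2055 in pLN. The part of these cells in the member values was not tested, and member values of PP are given for each array.

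Rgs1, Rgs3, Rgs10 and Rgs16 differed among the 12 groups, which differ in tissue, day and slide as well as in cell type. limma's F test called these 4 members, Rgs1 (adjusted p = 0.000461), Rgs3 (0.00180), Rgs10 (0.000168) and Rgs16 (2.83e-05), on a background of 17.3% of the 22264 tested probes. With 75th percentile scaling alone the F test called 2 members, and with slide as a random block 7. These counts stand without the share of all probes called under the same setting, so a moved count is no result about the members. Without the 4 arrays of slide 4 no PP group has a replicate, so the F test of that fit cannot decide whether the members differed. The plot of intensities by array sets out the leading probe of each gene, the tested probe with the highest mean.

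**Figure D1:**
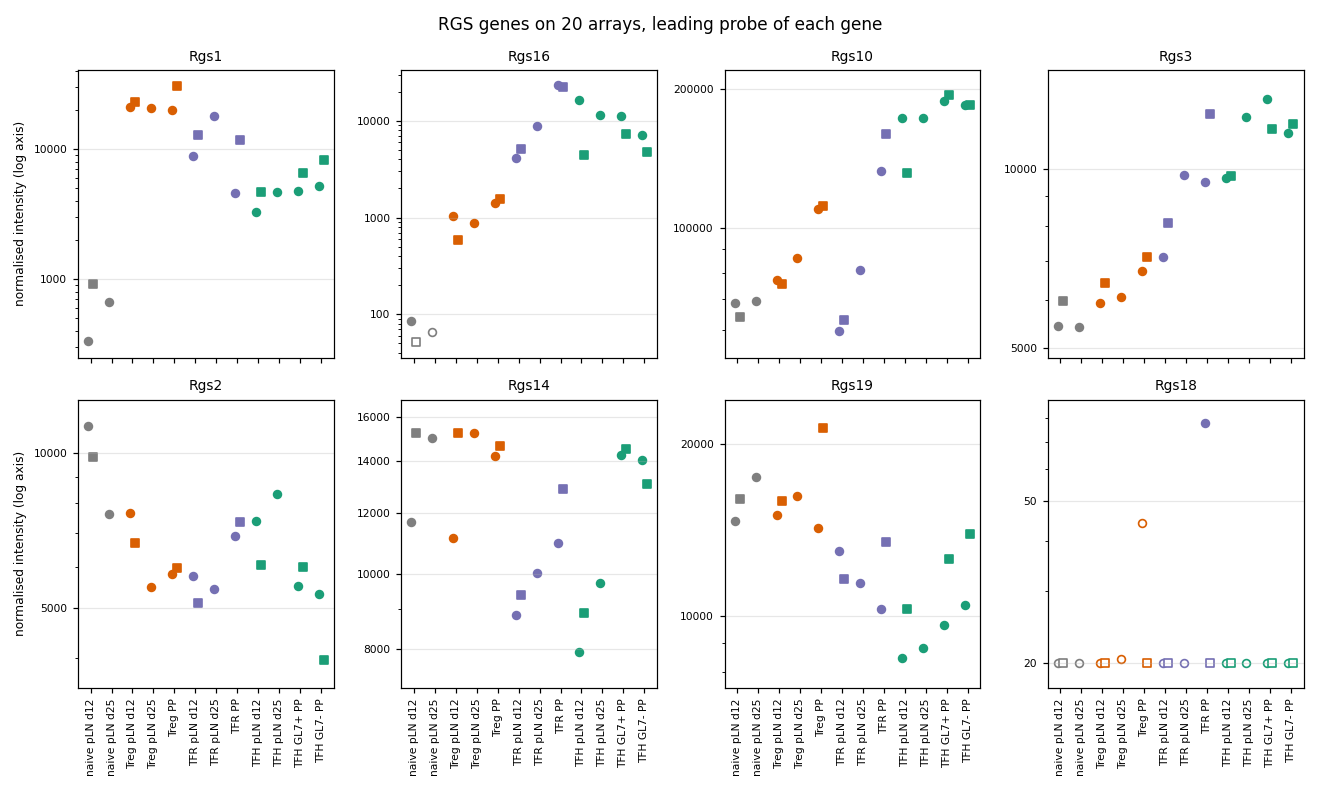
Normalised intensity (log axis) of the 8 members on the 20 arrays by group, with circles for replicate 1, squares for replicate 2 and open symbols for arrays on which the probe was not above background. Rgs16 spans 52.1 to 23305 and Rgs1 335 to 30509, with their highest arrays in TFR and Treg cells of PP respectively, while the leading probes run from 3970.1 to 11259 for Rgs2, 7910.4 to 15227 for Rgs14 and 8459 to 21302 for Rgs19.

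Rgs16 was the member that changed most between cell types. The gene is known as an inducible brake on chemokine receptors of activated T cells. Its probe lies on chromosome 1 at 155592244 to 155592303 (mm9, plus strand); whether it falls in a coding exon or a UTR was not analysed here. Promoter windows are printed for Rgs16, which had the widest range, and for Rgs2, which lies on the same chromosome and was called in no comparison. They are the 250 bases before the start of each gene, from RefSeq on build GRCm38.p6, at chr1:153740103-153740352 on the plus strand for Rgs16 and chr1:144004150-144004399 on the minus strand for Rgs2. Capitals mark CACCC, the core letters of KLF family sites, searched on both strands, so that GGGTG is the same motif on the other strand.
Rgs16: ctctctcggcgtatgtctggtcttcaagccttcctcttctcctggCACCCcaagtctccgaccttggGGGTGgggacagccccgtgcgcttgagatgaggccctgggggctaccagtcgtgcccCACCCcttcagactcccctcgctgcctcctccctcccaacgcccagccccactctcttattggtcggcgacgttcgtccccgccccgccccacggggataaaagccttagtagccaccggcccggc
Rgs2: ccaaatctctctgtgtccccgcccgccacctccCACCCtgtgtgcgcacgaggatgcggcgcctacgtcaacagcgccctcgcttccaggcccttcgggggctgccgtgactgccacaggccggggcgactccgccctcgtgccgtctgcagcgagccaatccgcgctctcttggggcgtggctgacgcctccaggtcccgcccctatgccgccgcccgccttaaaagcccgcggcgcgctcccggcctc
CACCC occurred 3 times in the Rgs16 window and 1 time in the Rgs2 window, and it occurs in 52% of all 32851 promoter windows of this length. TGANTCA (6.75% of windows), CAGCTG (13%), TTCCNNGAA (4.06%), TGACGTCA (1.55%) and GGAAA (55.6%) were not in either window. These matches describe the letters only. The promoter table also held windows for Rgs3, Rgs10 and Rgs19, which are not printed.

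In pLN d12, Rgs16 read 85.8 and 52.1 in naive T cells, 1037 and 586 in Treg cells, 4157 and 5062 in TFR cells and 16561 and 4427 in TFH cells. The second naive array was not above background. The groups rose in this order, except that the arrays of TFH and TFR cells overlapped. Rgs16 was 128-fold higher in TFH than in naive T cells (log2 7.0 ± 0.54 (SE), adjusted p = 1.60e-05 by limma, n = 2 arrays per group), or 96.3-fold with the dim naive array raised to its lowest resolved level. It was 11.7-fold higher in Treg than in naive T cells (log2 3.54 ± 0.54, adjusted p = 0.00396 by limma), or 8.77-fold with that array raised. Within the regulatory cells it was 5.88-fold higher in TFR than in Treg cells (log2 2.56 ± 0.54, adjusted p = 0.0130 by limma). This step lost its call without TFR replicate 1 (adjusted p = 0.0623), TFR replicate 2 (0.0829) or Treg replicate 2 (0.116), and the Treg against naive difference lost it without Treg replicate 1 (0.0530).

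On day 25, Rgs16 read 65.1 in naive T cells, which was not above background, 889 in Treg cells, 8905 in TFR cells and 11570 in TFH cells. The order matched that of day 12. TFH cells were at least 98.9-fold above naive T cells (adjusted p = 0.000234 by limma) and TFR cells 10.02-fold above Treg cells (log2 3.32 ± 0.77, adjusted p = 0.0346 by limma), where the single arrays of d25 are assumed to vary like groups of 2. The second of these lost its call without the detection filter (adjusted p = 0.0539).

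In PP, Rgs16 read 1413 and 1573 in Treg cells, 23305 and 22189 in TFR cells, 11113 and 7276 in GL7+ TFH cells and 7184 and 4776 in GL7- TFH cells. TFR cells lay above every other group of the series. They were 15.3-fold above PP Treg cells (log2 3.93 ± 0.54, adjusted p = 0.00110 by limma), with log2 differences of 4.04 on slide 4 and 3.82 on slide 5. The call was lost without slide 4 (adjusted p = 0.0991) or without slide 5 (0.108), fits that leave 1 array per PP group. Against pLN TFR cells they were 4.96-fold higher (log2 2.31 ± 0.54, adjusted p = 0.0173 by limma). This tissue difference lost its call without slide 4 (adjusted p = 0.148), without any of the 4 TFR arrays of PP and d12 (0.0655 to 0.104) and with slide as a random block (0.0774). Against PP GL7+ TFH cells the log2 difference was 1.34 (adjusted p = 0.338 by limma), and between GL7+ and GL7- TFH cells it was 0.62. Neither was called.

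Rgs1 was highest in Treg cells rather than in follicular cells. Rgs1 is a brake on chemokine receptors that marks activated and tissue-resident lymphocytes, and its probe lies on chromosome 1 at 146091962 to 146092021 (mm9, minus strand). It read 335 and 912 in naive T cells of pLN d12, 20992 and 23246 in Treg cells, 8788 and 12749.9 in TFR cells and 3263 and 4679 in TFH cells. None of these 4 groups overlapped. Treg cells were 40.0-fold above naive T cells (log2 5.32 ± 0.54, adjusted p = 0.000312 by limma) and TFH cells 7.07-fold above them (log2 2.82 ± 0.54, adjusted p = 0.00391 by limma). TFH cells of d25 rose likewise, from 666 in naive T cells to 4657 (log2 2.81 ± 0.76, adjusted p = 0.0458 by limma), a call lost without the detection filter (0.0822).

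The step from Treg to TFR cells went the other way in Rgs1, below the threshold of the test. In pLN d12 the log2 difference was -1.06 (adjusted p = 0.283 by limma). In PP, Treg cells read 20092 and 30509 and TFR cells 4593 and 11662, a log2 difference of -1.76 (adjusted p = 0.0621 by limma). It was negative on each slide, at -1.26, -0.87 and -0.20 on slides 1 to 3 and -2.13 and -1.39 on slides 4 and 5. With slide as a fixed block, which takes out what the arrays of 1 slide share, Rgs1 fell in both tissues (adjusted p = 0.0223 in pLN d12 and 0.00248 in PP), and the PP difference passed also with normexp background correction (0.0466) and without PP TFR replicate 2 (log2 -2.43, adjusted p = 0.0337). TFR cells of pLN d12 lay 1.44 on the log2 scale above TFH cells (adjusted p = 0.194, and 0.0110 with the block). GL7+ TFH cells of PP read 4755 and 6594 and GL7- TFH cells 5217.02 and 8236, so these overlapped. TFR cells of d25, at 18150.1, stood close to d25 Treg cells at 20908.

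**Figure D2:**
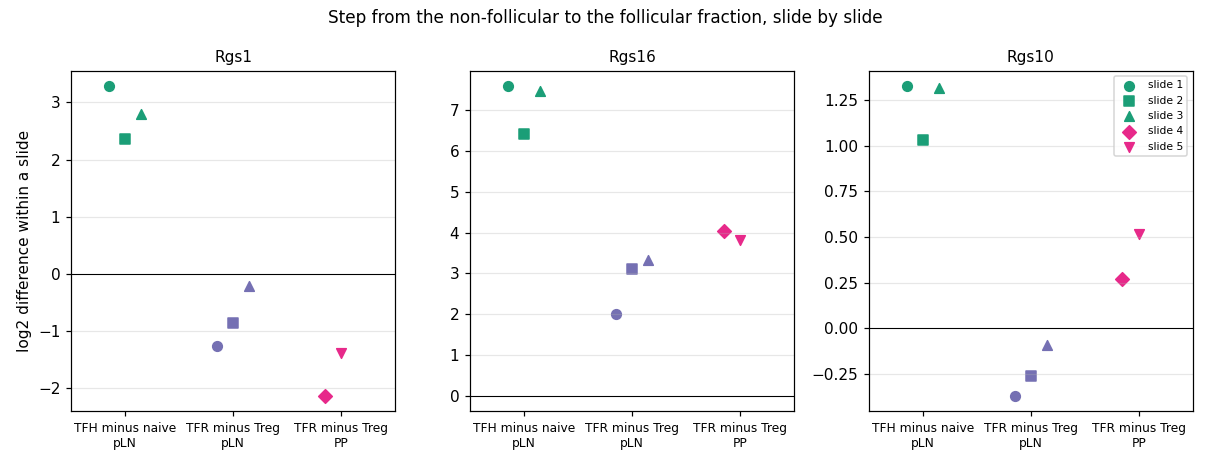
Differences within a slide (log2 of the intensity ratio) for TFH minus naive in pLN and TFR minus Treg in pLN and in PP, of Rgs1, Rgs16 and Rgs10, with 1 point per slide. Rgs16 is above 0 on every slide in all comparisons, whereas Rgs1 is above 0 for TFH against naive T cells and below 0 for TFR against Treg cells.

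Rgs10 rose in TFH cells of pLN and was higher in TFR cells of PP than in those of pLN. Rgs10 is an RGS protein of few domains that is abundant in haematopoietic cells. Its probe (chromosome 7, 135517256 to 135517315, mm9, minus strand) was bright on all arrays. In pLN d12 it read 68887 and 64224 in naive T cells, 77114 and 75745 in Treg cells, 59757 and 63328 in TFR cells and 172610 and 131224 in TFH cells. TFH cells were 2.26-fold above naive T cells (log2 1.18 ± 0.16, adjusted p = 0.000597 by limma), and TFR cells were 2.45-fold below TFH cells (log2 -1.29 ± 0.16, adjusted p = 0.00117 by limma). The d25 arrays lay in the same order for naive T (69554) and TFH cells (172992, log2 1.31 ± 0.23, adjusted p = 0.00536 by limma), with Treg cells at 86197 and TFR cells at 81049.6. In PP, TFR cells read 132860 and 159737 against 109997 and 111729 in Treg cells (log2 0.39, adjusted p = 0.178), 188428 and 193722 in GL7+ TFH cells and 184012 on both arrays of GL7- TFH cells, which held the same rank there. PP TFR cells were 2.37-fold above pLN TFR cells (log2 1.24 ± 0.16, adjusted p = 0.00120 by limma).

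All of these Rgs10 calls depend on how the bright end of the arrays is scaled. The sign of 2 uncalled PP differences depends on it too. Without quantile normalisation PP TFR cells read 93356 and 125981, below PP Treg cells at 109435 and 145276. GL7+ TFH cells then read 127424 and 165217, below GL7- TFH cells at 136063 and 176122. Scaled by the 75th percentile alone, without quantile normalisation, TFH against naive T cells gave log2 0.65 in d12 (adjusted p = 0.0733) and 0.73 in d25 (0.244), TFR against TFH cells -0.93 (0.0424, under the fold threshold) and PP against pLN TFR cells 0.72 (0.0567). Without pLN d12 TFH replicate 1 the d12 difference was 0.98 (adjusted p = 0.00627), also under the fold threshold.

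Rgs3 rose in TFH cells, though its 4 probes differed in their calls. The gene gives rise to long and short proteins that share the RGS domain, and its 4 probes lie along chromosome 4. The leading probe (A_55_P2027102, 62363993 to 62364052, mm9, plus strand) read 5442 and 5987 in naive T cells of pLN d12, 5936 and 6432 in Treg cells, 7099 and 8118 in TFR cells and 9634 and 9724 in TFH cells. Naive T and Treg arrays overlapped, and TFH cells stood apart from the other groups. TFH cells differed from naive T cells by log2 0.76 ± 0.17 (adjusted p = 0.00826 by limma), which is under the fold threshold of 1 on the log2 scale. On d25 the same difference was 1.18 ± 0.23 (5405 against 12239.9, adjusted p = 0.0100 by limma), which passed both. In PP it read 6722 and 7097 in Treg cells, 9496 and 12362 in TFR cells, 13132 and 11679 in GL7+ TFH cells and 11505 and 11901 in GL7- TFH cells. PP TFR and Treg cells differed by log2 0.65 (adjusted p = 0.0288), also under the fold threshold.

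The upstream Rgs3 probe (A_55_P2027117, 62320777 to 62320836) carries the accession of another transcript. It read 1403 and 1875 in naive T cells and 3593 and 4179 in TFH cells of pLN d12 (log2 1.26 ± 0.30, adjusted p = 0.0138 by limma), a call lost without naive replicate 1 (0.115) or TFH replicate 2 (0.0799). In PP TFR cells it read 3587 and 5975 against 2248 and 2781 in Treg cells. The probe A_55_P2027107 (62363208 to 62363267) was higher on slide 4 than on slide 5, at 10240.8 against 5217.02 in GL7+ TFH cells, 8172 against 4713 in TFR cells and 5211 against 2755 in Treg cells. The leading probe did not show that gap, and A_55_P2027112 (62358833 to 62358892) stayed dim, at 48 to 157 over all arrays.

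**Figure D3:**
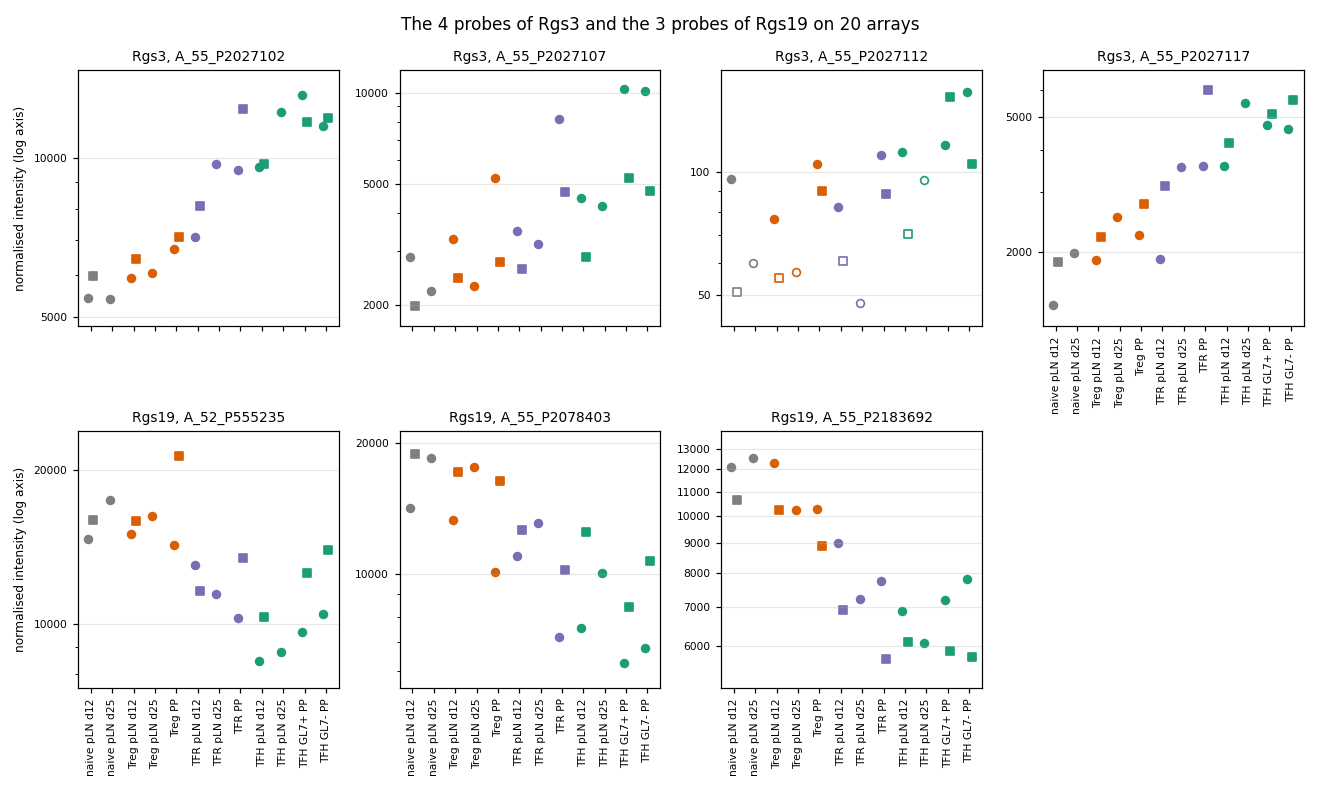
Normalised intensity (log axis) by group for the 4 Rgs3 probes and the 3 Rgs19 probes, each in a panel of its own, with circles for replicate 1, squares for replicate 2 and open symbols where a probe was not above background. In pLN d12 the leading and the upstream Rgs3 probe are highest in TFH cells. A_55_P2027107 is higher on slide 4 (PP replicate 1) than on slide 5, and on slide 1 (pLN d12 replicate 1) than on slide 2.

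Rgs2, Rgs14 and Rgs19 were above background in all groups, and none of the 3 was called in any comparison of the model without a slide term. Rgs2, a brake on Gq signals that is induced in activated lymphocytes (probe on chromosome 1 at 145848830 to 145848889, mm9, minus strand), read 11259 and 9817 in naive T cells of pLN d12, 7652 and 6688 in Treg cells, 5761 and 5122 in TFR cells and 7373 and 6068 in TFH cells. Naive T cells lay above the other 3 groups, and the log2 difference of TFH from naive T cells was -0.65 ± 0.18 (adjusted p = 0.0315 by limma), under the fold threshold. On d25 the sign was the opposite, with TFH cells at 8331 and naive T cells at 7620 (log2 0.13). In Rgs2 TFR minus Treg was -0.41 and -0.38 on slides 1 and 2, -0.01 on slide 3 and 0.24 and 0.30 on slides 4 and 5 of PP, where TFR cells read 6899.9 and 7359.8. The difference between these tissue steps was log2 0.67 (adjusted p = 0.466 by limma). A second Rgs2 probe (145847227 to 145847286) was above background on 1 array.

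Rgs14, which joins G protein and Ras signals (chromosome 13, 55485762 to 55485821, mm9, plus strand), read 11666 and 15227 in naive T cells of pLN d12, 11118 and 15221 in Treg cells, 8839.8 and 9400.3 in TFR cells and 7910.4 and 8894 in TFH cells. The slide 2 array was the higher in each of these groups. The TFH arrays were below all naive T arrays, by log2 -0.67 ± 0.19 (adjusted p = 0.0347 by limma), under the fold threshold. GL7+ TFH cells of PP read 14285 and 14522, log2 0.78 ± 0.19 above pLN TFH cells (adjusted p = 0.0444 by limma), again under the fold threshold.

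Rgs19, known also as GAIP, a Gi regulator of vesicle membranes, has 3 probes within chromosome 2 at 181423128 to 181423830 (mm9, minus strand). The leading probe (A_52_P555235) read 14683 and 15990.2 in naive T cells of pLN d12, 15031 and 15872 in Treg cells, 13017 and 11623 in TFR cells and 8459 and 10305 in TFH cells. TFH cells lay below the other 3 groups, and the log2 difference from naive T cells was -0.71 ± 0.25 (adjusted p = 0.0719 by limma). The same difference was -0.81 (adjusted p = 0.0334) for A_55_P2183692 and -0.75 (0.190) for A_55_P2078403. The 3 probes thus had the same sign, and none was called. On d25 the difference was -0.99 (adjusted p = 0.131), -1.04 (0.0866) and -0.88 (0.429) for these probes in the same order, and A_55_P2183692 passed with slide as a random block (adjusted p = 0.000424).

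Rgs18, an RGS protein of megakaryocytes and platelets (chromosome 1, 146600137 to 146600196, mm9, minus strand), was at or near the lowest value the scale allows. It was at the floor of 20 on 17 arrays and above background only on PP TFR replicate 1 (77.7). The summed level of 7 platelet and megakaryocyte markers, most of them also at the floor, was 140 to 259 on all arrays with 0 or 1 of them above background. Rgs18 thus stayed out of the tests. Together with Rgs1, Rgs2 and Rgs16 it is 1 of 4 members on chromosome 1, and their levels followed different patterns over the groups.

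Counted by comparison, the members called were Rgs1, Rgs3, Rgs10 and Rgs16. In pLN d12, with TFH set against naive T cells, 4 of 7 tested genes rose and 0 fell, on a background of 14.7% of tested probes. A gene counts with any called probe, whereas the background counts probes. The members were chosen with earlier results of these data known, so counts and medians set against the background are descriptions only. By leading probe 3 rose, since Rgs3 was called only for A_55_P2027117. The median log2 difference of the 7 leading probes was 0.76 against -0.09 over all probes. With the compared groups fitted alone, Rgs16 was the 1 member that kept its call (adjusted p = 0.0973 for Rgs1 and 0.0794 for Rgs10). On d25, 4 rose (background 8.72%), with Rgs3 called for its leading probe and not for A_55_P2027117. Between Treg and naive T cells, 2 rose (background 3.76%), with a median of 0.11 against -0.03.

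Between TFR and Treg cells, 1 member rose in pLN d12 (background 8.35%), 1 on d25 (background 5.3%) and 1 in PP (background 9.25%), and it was Rgs16 each time. The median log2 difference of the leading probes was -0.33 against -0.08 in pLN d12 and 0.27 against -0.05 in PP. In TFR against TFH cells of pLN d12, 1 member fell (Rgs10, background 5.01%), and in PP 0 did (background 3.44%). There 2 of the 7 leading probes passed an unadjusted p under 0.05 in limma, as did 2548 of all 22264 tested probes. Between GL7+ and GL7- TFH cells, limma called 0 members (background 0.00898%). At an unadjusted p under 0.05 there were 0, against 254 of all 22264 tested probes.

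Between PP and pLN d12, 2 members rose in TFR cells (Rgs10 and Rgs16, background 11.1%), with a median of 0.39 for the leading probes against 0.003 over all probes. limma called 0 in Treg cells (background 2.24%) and 0 in GL7+ TFH cells (background 4.54%), with 1 at an unadjusted p under 0.05 in each. Of all 22264 tested probes, 3248 passed that unadjusted level in Treg cells and 4365 in GL7+ TFH cells. The tissue difference of TFR minus Treg was called for 0 members (background 0.548%), with log2 0.71 (adjusted p = 0.330 by limma) for Rgs10. At an unadjusted p under 0.05 there were 2, against 1818 of all 22264 tested probes. The tissue difference of TFR against GL7+ TFH cells was called for 0 members (background 0.611%), with log2 2.24 (adjusted p = 0.447 by limma) for Rgs16. Here 3 members passed an unadjusted p under 0.05, against 1444 of all 22264 tested probes. Rgs16 and Rgs10 are therefore not shown to differ more between tissues in TFR cells than in the other cell types. Between d25 and d12, limma called 0 members in naive T cells (background 0.00898%), TFH cells (background 0.0314%), Treg cells (background 0%) and TFR cells (background 0.00898%). At an unadjusted p under 0.05 there were 0 members in all 4. Of all 22264 tested probes, 258, 635, 780 and 812 passed that level in the same order.

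**Figure D4:**
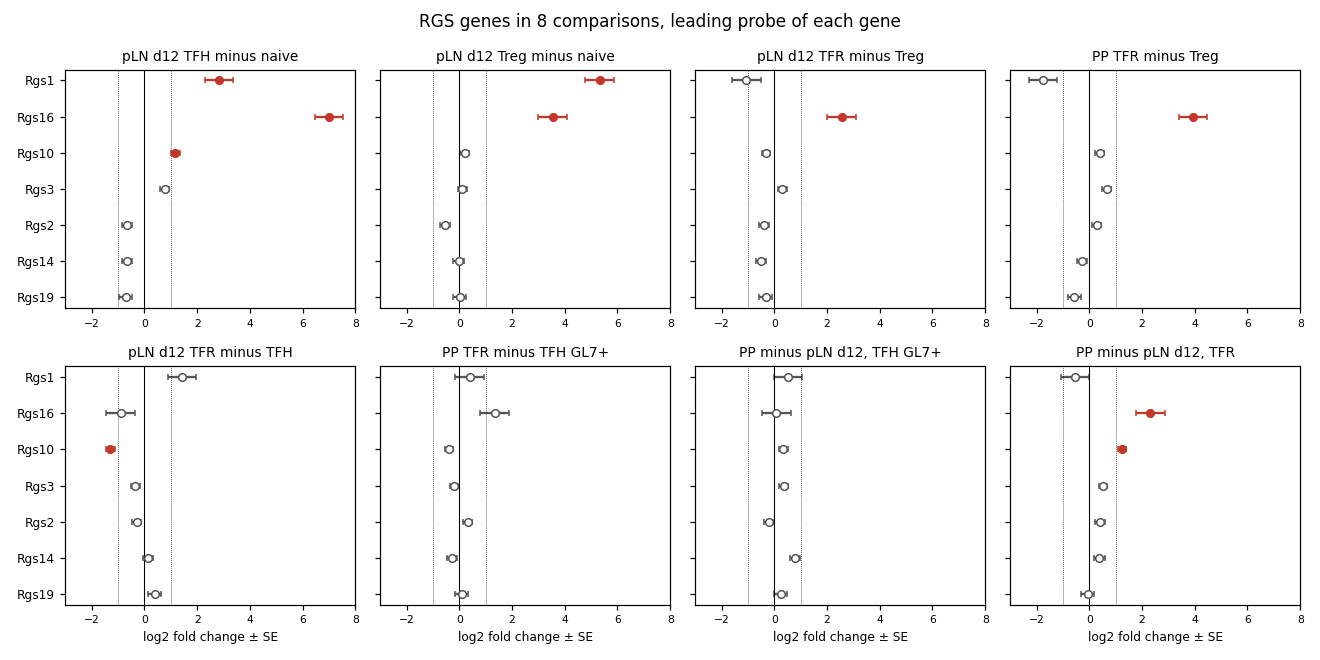
Log2 fold changes with standard errors (limma) of the 7 tested leading probes in 8 comparisons, with filled red points for called differences and dotted lines at -1 and 1. Rgs16 is called where TFH or TFR cells are set against naive T or Treg cells, between Treg and naive T cells and between TFR cells of PP and pLN, and Rgs1 against naive T cells, while Rgs2, Rgs14 and Rgs19 stay between the lines.

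The follicular step of helper cells was also set against that of regulatory cells. This comparison, TFH minus naive against TFR minus Treg in pLN d12, was chosen after the values had been seen, so its test is no independent support. It called 3 members (background 2.18%), none of which kept the call with the compared groups fitted alone. The log2 difference between the steps was 3.88 ± 0.76 for Rgs1 (adjusted p = 0.0275 by limma), 1.49 ± 0.23 for Rgs10 (adjusted p = 0.00870 by limma) and 4.44 ± 0.77 for Rgs16 (adjusted p = 0.0153 by limma), all larger on the helper side. With the naive array that was not above background raised to its lowest resolved level, the value for Rgs16 was log2 4.03. The steps start from different levels, since Rgs1 and Rgs16 were already higher in Treg than in naive T cells. Rgs1 lost the call when any of 7 of the 8 arrays was left out (adjusted p = 0.0682 to 0.127), and the naive replicate 2 was the exception. Rgs16 lost it without Treg replicate 1 (0.0741), TFR replicate 1 (0.0749), TFR replicate 2 (0.0521) or naive replicate 2 (0.0537), and Rgs10 kept it in all of these but not with 75th percentile scaling alone (1.16, adjusted p = 0.142).

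Other genes of the pathway were counted in the same comparisons. Of 21 receptors that couple to these G proteins, all tested, 8 rose and 5 fell in TFH against naive T cells of pLN d12, with a median log2 difference of 0.86 (background 14.7% of all tested probes called). Cxcr5, the receptor for the follicular chemokine Cxcl13, rose by 6.39 on the log2 scale, S1pr2 by 3.85 and Ptger2 by 4.70, while Ccr7, which holds T cells in the T zone, fell by 3.70, S1pr1, which drives exit from the node, by 3.62 and Gpr18 by 3.81. Of 23 tested G protein subunits, 5 rose and 1 fell in TFH against naive T cells, with a median of 0.37 and with Gng2 at log2 2.36, Gna13, which transmits S1pr2 signals, at 1.17, Gna14 at least 24.5-fold higher, Gnaq at least 6.29-fold higher and Gnb4 at -1.25. In TFR against Treg cells of pLN d12, 1 of the 23 rose (background 8.35%).

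Of 25 tested terminators and effectors of the pathway, 3 rose and 4 fell in TFH against naive T cells of pLN d12 (background 14.7%). Their median log2 difference was -0.18. Plcb3, a phospholipase that Gq and beta-gamma subunits activate, rose by 1.78 on the log2 scale and Plcb4 was at least 14.3-fold higher, while Pik3r5, the adaptor of PI3K-gamma, fell by 3.46. Of the 15 other genes whose symbols start with Rgs, 7 were tested. In TFH against naive T cells 2 of them rose (background 14.7%), Rgs8 (at least 8.21-fold) and Rgs9 (at least 2.11-fold). In TFR against Treg cells of pLN d12 (background 8.35%) Rgs9 (log2 3.42 ± 0.40, adjusted p = 0.000705 by limma) and Rgs12 (log2 1.24 ± 0.15, adjusted p = 0.000912 by limma) rose. Rgs13, a gene of germinal centre B cells held in the B cell list, read 3054 in PP TFR replicate 1, 2021 in PP Treg replicate 1 and 1060 in PP GL7+ TFH replicate 1, against 32.6 to 378 on slide 5.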

How the data were processed

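The deposited scanner files (Agilent Feature Extraction 10.7.3.1, per the labels) give background-subtracted intensity for each printed feature, and other columns of the deposited files hold quality marks set by the software. The authors' series matrix holds normalised linear intensity and was used as an alternative. Probe values were rebuilt as the geometric mean of 4 features without software outliers, those beyond 1.42 interquartile ranges or those whose pixels varied by a coefficient over 0.5, then quantile normalised, scaled, floored at 20 and taken to log2. The member values differed from the deposited log2 intensity of the authors by at most 0.169 to 0.225 per array. Between 43.0% and 58.0% of 39429 probes were above background per array, which limits precision for dim probes. The number of arrays limits the rest.

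A linear model with a mean per group was fitted to all 20 arrays (limma 3.58.1 in R 4.3.3, lmFit and eBayes, 8 residual degrees of freedom). Two-sided p-values were adjusted (Benjamini-Hochberg) over 22264 tested probes. Called means adjusted p under 0.05 with a log2 difference of 1 or more either way, and for the F test p under 0.001 with adjusted p under 0.005. A gene was called with any called probe. "At least" folds raise a dim group to its lowest resolved level. The test was run on simulated data with independent noise per array and no slide effect. That run does not cover arrays that share a slide. The members and gene lists were chosen with earlier results of these data known. Replicates are numbered in order of deposition, which follows the slides, and slides 1 and 4 received 50 ng of RNA per array, the others 40 ng. Alternatives were other background correction, scaling, filters and values, slide as a block, RNA input as a covariate, the compared groups alone and leaving out arrays or slides. Probe positions are from the array annotation (mm9), promoter windows from RefSeq (GRCm38.p6).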

Additional observations from a re-analysis of the deposited data

Results flagged for a closer look

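In pLN d12, the difference between TFH and naive T cells exceeded the difference between TFR and Treg cells by 3.88 on the log2 scale for Rgs1, 1.49 for Rgs10 and 4.44 for Rgs16. The comparison was added because these members had been seen to differ, so limma's test of it is no independent support. Rgs1 lost the call without any of 7 of the 8 arrays, and the Rgs16 value includes a naive array that was not above background.

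Signal above background appeared for a pair of probes outside the tests. The second Rgs2 probe (A_52_P378968) read 45.4 on PP TFR replicate 2, and the Rgs18 probe read 77.7 on PP TFR replicate 1. Each was above background on 1 array only, and no other array of the group shared it.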

How the results depend on the processing

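Of 19 member probes and comparisons called, 3 kept the call under every alternative run for them, of which 2 were d25 pairs with no array left out. The compared groups were fitted alone for 14 of the 19, and 12 of these lost the call. None of the 19 reversed. Of 204 recomputed counts of members called, 168 stayed within 1.5 times the count reported and 36 moved. The counts below stand without the share of all probes called under the same setting, so a moved count is no result about the members. The F test (4 members) gave 2 with 75th percentile scaling alone, 7 with slide as a random block and 0 without slide 4. With the compared groups alone, the counts were 1 for TFH against naive T cells of pLN d12 and 0 for Treg against naive T cells, TFR against Treg cells and TFR against TFH cells of pLN d12, 0 for TFR against Treg cells of PP, 1 for PP against pLN TFR cells and 0 for the difference of the helper and regulatory steps. Slide as a fixed replicate block gave 2 members in place of 1 for TFR against Treg cells of pLN d12 and of PP and for TFR against TFH cells of pLN d12. It moved no other count by over 1.5 times. The 75th percentile scaling alone gave 0 for TFR against TFH cells of pLN d12 and 1 for PP against pLN TFR cells. It moved the median log2 difference of all probes between TFR and Treg cells of d25 from -0.05 to -0.22, and by less elsewhere. The comparison of PP with pLN TFR cells also gave 1 with slide as a random replicate block and 1 without slide 4. TFR against Treg cells of PP gave 2 with normexp and 0 without slide 4 or, added after seeing the data, without slide 5. With RNA input as a covariate, PP against pLN GL7+ TFH cells gave 1 (Rgs3 probe A_55_P2027107, log2 1.02, adjusted p = 0.00477). Without the detection filter, TFR against Treg cells of d25 gave 0 and the difference of steps 1.

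Leaving out 1 array at a time gave 3 to 4 members for TFH against naive T cells of pLN d12, 1 to 2 for Treg against naive T cells, 0 to 1 for TFR against Treg cells, 1 to 2 for TFR against TFH cells, 1 to 2 for TFR against Treg cells of PP, 1 to 2 for PP against pLN TFR cells, 0 to 1 for the tissue difference of TFR against GL7+ TFH cells and 1 to 2 for the difference of steps. Rgs16 in TFR against TFH cells of pLN d12 turned from log2 -0.90 to 0.051 (adjusted p = 0.992) without TFH replicate 1 and was -1.85 (adjusted p = 0.0469, past the threshold) without TFH replicate 2. The cause of these shifts was not tested. Rgs18 and other probes near the lowest resolved level are limited by signal over background.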

Other observations

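Over the 12 group means of 14490 genes, among the genes whose log2 pattern was most like that of Rgs16 were Gabarapl1 (Pearson r = 0.995), Cyfip1 (0.992) and Sh3rf1 (0.990), and among those for Rgs3 were Hspa5 (0.990) and Plxna3 (0.980). For Rgs10 they were H2-Q1 (0.975), Ube2f (0.968) and Sptlc1 (0.963), and for Rgs1 AI790276 (0.981), Specc1 (0.963) and Apol9a (0.960). Rgs14 was most like Dnajc11 (0.969), Cyp2d11 (0.962) and Copg1 (0.961), and Rgs19 most like A130072N09Rik (0.973), Cnp (0.970) and Relt (0.963). The nearest patterns to Rgs2 were less alike, with Arih2 at 0.854, Clcn3 at 0.829 and Tmie at 0.827. The groups share slides and a normalisation, and these values are descriptions over 12 points.

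The terminators and effectors of the pathway gave 2 called higher and 2 lower of 25 tested in TFR against Treg cells of pLN d12, where 8.35% of all tested probes were called, with a median log2 difference of -0.11 against -0.08 over all probes.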
